A study of Mus musculus with 45 samples.

Results

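The uncultured young oocyte is described here from 8 of the 45 single-oocyte libraries of a mouse study. The 8 were taken by their label, in vivo young, which the study's design text describes as oocytes of young mice sequenced without in vitro culture. The study as a whole placed oocytes into follicles that had lost their own oocyte, cultured these reconstituted chimeric follicles (RCF), and sequenced the oocytes one by one. Its other groups, young oocytes cultured in vitro (8 libraries) and oocytes from RCF-YY (11), RCF-AY (6) and RCF-AA (12), are not compared here. The labels state neither strain, age in weeks, hormone treatment, meiotic stage nor the number of mice behind the 8 oocytes. Each oocyte is labelled a biological replicate, and the SDs below are therefore the spread between these 8 libraries.

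A growing oocyte transcribes a large store of messenger RNA, then falls silent, and the stored messages carry it through meiosis and the first cleavage. It builds the zona pellucida, the glycoprotein coat that sperm bind, and it secretes growth factors that steer the surrounding granulosa cells. Genes found almost only in oocytes contribute to this store, among them members of the Nlrp, Oog and Obox families and a tandem array of Fbxw genes. Many of them are copies of one another.

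The 8 libraries are named by the library numbers in their labels, S17 and S18 (replicates 1 and 2), S71, S72, S73 and S74 (replicates 3 to 6) and S76 and S77 (replicates 7 and 8). Total counts ran from 418703 in S73 to 2201980 in S74. Levels are given as CPM, read counts scaled to each library's total, so that a longer transcript gives more reads at the same level. Ranks and shares in CPM are therefore orders of reads, and levels of different genes are compared as CPM per kilobase (kb) of the longest annotated transcript. S74, the deepest library, stood apart from the rest. Over the 2129 genes with a mean of at least 100 CPM, its Spearman correlation with the other libraries was 0.706 to 0.839, against 0.850 to 0.941 for the 21 pairs without it. In S74, 110 of these genes lay at least 2-fold from the median of the other 7 libraries, against 5 to 29 genes in each of the others. S17 and S18 were the closest pair of all, at 0.941, and some genes below set these 2 apart from the other 6 libraries. What sets S74, or S17 and S18, apart was not tested. Values without S74 are given where it decides a result.

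The 3 oocyte markers were strongly read in every library. Zp3, a protein of the zona pellucida, was read at 3705 to 4987 CPM, with a median of 4357. Gdf9, a growth factor the oocyte sends to granulosa cells, was at 5458 to 9537 CPM, with a median of 6734. Bmp15, its partner growth factor on the X chromosome, was at 2738 to 4871 CPM, with a median of 3747. All 3 were among the 20 genes with the most reads, at ranks 13, 4 and 19 by mean CPM. S18 was the highest library for both growth factors, while S71 was lowest for Gdf9 and Zp3 and S74 for Bmp15.

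Promoters of abundant genes, and of 1 gene at a far lower level (Fbxw17), are shown because their letters can be set beside the levels. They come from RefSeq (build GRCm38.p6) and hold the 250 bases before the annotated start, 5′ to 3′. Capitals mark every CANNTG, the E-box letters that FIGLA, a helix-loop-helix factor of oocytes, is known to bind. Zp3 (chr5:135979855-135980104, plus strand) carries the letters at 181, 134 and 55 bases before its start. Bmp15 (chrX:6320725-6320974, minus strand) carries them once, and H1f8, the oocyte linker histone (chr6:115944681-115944930, plus strand), once, 66 bases before its start.
Zp3: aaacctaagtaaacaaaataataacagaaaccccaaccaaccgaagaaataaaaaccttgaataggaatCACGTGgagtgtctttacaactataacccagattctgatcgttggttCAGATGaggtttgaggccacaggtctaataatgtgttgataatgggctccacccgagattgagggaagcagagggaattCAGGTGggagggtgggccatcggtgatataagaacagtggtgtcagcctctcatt
Bmp15: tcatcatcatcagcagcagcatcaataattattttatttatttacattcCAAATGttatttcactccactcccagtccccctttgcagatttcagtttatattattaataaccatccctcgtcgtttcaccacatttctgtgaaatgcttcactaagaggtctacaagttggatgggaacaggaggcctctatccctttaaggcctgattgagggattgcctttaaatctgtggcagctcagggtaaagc
H1f8: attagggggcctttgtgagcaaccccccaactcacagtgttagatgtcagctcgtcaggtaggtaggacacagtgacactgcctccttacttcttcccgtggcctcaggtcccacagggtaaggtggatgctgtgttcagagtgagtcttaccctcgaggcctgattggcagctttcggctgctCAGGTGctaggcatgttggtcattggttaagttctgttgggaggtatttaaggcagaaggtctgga

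The next 5 promoters belong to Fbxw genes, which encode F-box proteins with WD repeats. Fbxw24 (chr9:109626060-109626309), Fbxw15 (chr9:109568263-109568512), Fbxw18 (chr9:109702701-109702950) and Fbxw25 (chr9:109664653-109664902), all on the minus strand, lie in 1 array. Fbxw17 (chr13:50417614-50417863, plus strand) lies elsewhere and was at 13.8 CPM per kb.
Fbxw24: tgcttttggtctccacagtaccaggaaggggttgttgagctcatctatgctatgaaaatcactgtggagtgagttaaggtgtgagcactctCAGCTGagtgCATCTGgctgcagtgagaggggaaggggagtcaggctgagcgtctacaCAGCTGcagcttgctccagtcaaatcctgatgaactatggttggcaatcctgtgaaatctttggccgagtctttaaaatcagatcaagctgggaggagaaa
Fbxw15: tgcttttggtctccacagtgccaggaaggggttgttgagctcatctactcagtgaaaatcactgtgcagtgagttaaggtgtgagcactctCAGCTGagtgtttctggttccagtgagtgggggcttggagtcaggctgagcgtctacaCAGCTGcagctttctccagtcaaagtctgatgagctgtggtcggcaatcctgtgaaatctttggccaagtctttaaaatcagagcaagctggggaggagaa
Fbxw18: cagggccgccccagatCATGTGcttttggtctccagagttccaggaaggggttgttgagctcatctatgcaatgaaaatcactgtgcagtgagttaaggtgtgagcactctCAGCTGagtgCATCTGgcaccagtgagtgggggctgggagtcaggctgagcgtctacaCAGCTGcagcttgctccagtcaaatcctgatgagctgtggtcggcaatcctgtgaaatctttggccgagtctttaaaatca
Fbxw25: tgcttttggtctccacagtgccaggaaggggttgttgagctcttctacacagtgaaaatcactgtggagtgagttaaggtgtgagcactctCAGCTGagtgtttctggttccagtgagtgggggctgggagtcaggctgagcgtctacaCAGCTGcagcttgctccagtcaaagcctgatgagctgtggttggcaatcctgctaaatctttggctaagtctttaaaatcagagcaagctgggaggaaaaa
Fbxw17: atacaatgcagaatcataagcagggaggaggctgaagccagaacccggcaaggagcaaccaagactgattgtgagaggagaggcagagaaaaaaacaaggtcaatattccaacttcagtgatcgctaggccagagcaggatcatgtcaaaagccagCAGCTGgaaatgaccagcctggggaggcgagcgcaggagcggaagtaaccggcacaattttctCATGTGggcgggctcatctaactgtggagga

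The 4 array promoters can be aligned over most of their length, with changed letters scattered through them. RefSeq promoters matched 11 of the 14 array genes, and over their 55 pairs the aligned stretch (251 to 300 bases, the 50 transcribed bases included) was 85.5% to 97.98% identical. CANNTG was present in all 11. The Fbxw17 promoter shared no aligned stretch longer than 23 bases with any of them. The levels of the 11 genes spanned 332 CPM per kb (Fbxw25) to 3307 CPM per kb (Fbxw24), and the promoters of that pair were 91.3% identical over 300 aligned bases.

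Across many promoters, CANNTG was common everywhere. Of the 100 protein-coding genes highest by CPM per kb, 79 matched a promoter, and some matched several. The letters were found on 75 of their 93 promoters (80.6%), on 64.0% of 8546 promoters of detected genes and on 68.7% of all 20460 matched promoters. The letters read the same on both strands. GGGCGG, the GC-box letters, searched on both strands, went the other way, at 34.4% of the top genes' promoters, 61.6% of those of detected genes and 47.5% of all. TAATTG, the letters of NOBOX and other homeodomain proteins, was on 11.8%, 5.51% and 6.78%. TATAAA, the TATA-box letters, was on 9.68%, 7.01% and 12.4%, and CCAAT on 36.6%, 39.3% and 38.0%, both strands searched. The median GC content of the windows was 51.3% for the top genes and 60.7% for detected genes. These shares are descriptions, and promoters of the Fbxw array enter the top group repeatedly as copies.

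The ranking by CPM was led by Spin1, which encodes a chromatin reader of methylated histone H3 that the egg needs in meiosis. Spin1 ranged from 9220 CPM in S71 to 10516 CPM in S73, with a median of 9787 CPM. Ldhb, the lactate dehydrogenase subunit that favours the making of pyruvate, followed with 7993 to 10958 CPM, and H1f8 with 7263 to 9756 CPM. The ranges of these 3 genes overlapped, so their order in CPM does not separate them beyond the spread between libraries. Gdf9 and Ubb, a polyubiquitin gene, were next with means of 7337 ± 1559 and 7063 ± 570 CPM (SD, n = 8). The top 10 of every library had 6 genes in common, and no gene took more than 1.096% of any library.

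**Figure D1:**
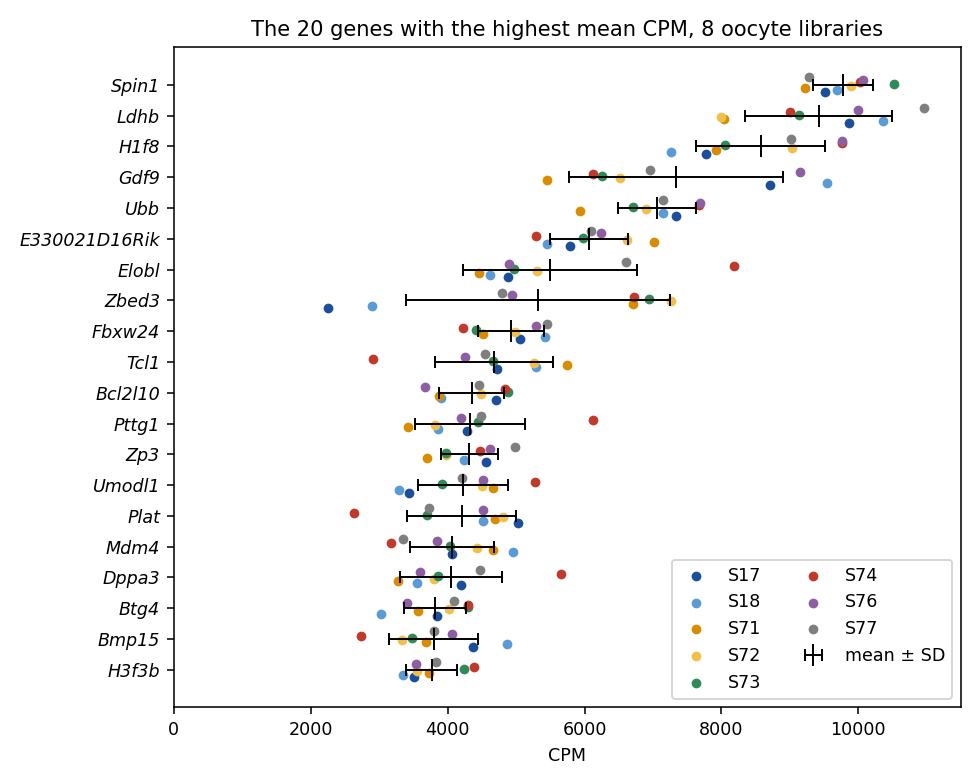
The 20 genes with the highest mean CPM, one row each; the x axis is CPM, points are the 8 libraries, and the black bar is the mean ± SD. Spin1 (9220 to 10516 CPM) has the smallest SD of the 20 relative to its mean, though not in CPM. Zbed3 is low in S17 and S18 (2246 and 2897 CPM), and S74 is an end point in several rows.

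Per kb of transcript the order changed. Ldhb led with 7222 ± 820 CPM per kb, and H1f8, at 7191 ± 794, and Elobl, an elongin B-like gene, at 6707 ± 1557, were not separated from it by their spread. Dppa3 followed with 4860 ± 896 CPM per kb. Dppa3 encodes the factor also known as Stella, which shields the maternal genome from loss of methylation. Ubb (4712 ± 380), Gdf9 (4092 ± 870) and Bcl2l10, an egg member of the Bcl2 family (3569 ± 390 CPM per kb), came next. Spin1, whose longest transcript has 4434 bases, dropped to rank 17 with 2204 ± 98.7 CPM per kb. Both orders shared 15 of their 20 leading genes.

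Counts were spread over many genes. The top 10 genes of each library held 6.54% to 7.45% of its counts, the top 100 held 25.5% to 26.6% and the top 1000 held 60.0% to 61.4%. Between 539 and 584 genes made up the first 50% of counts. The top 100 of all 8 libraries had 74 genes in common. A total of 9611 genes were at 1 CPM or more in every library, 8230 of them protein-coding, which is 37.7% of the 21833 protein-coding identifiers. Numbers of detected members of the lists and families below are to be read beside that share. Reduced to the smallest library total, each library was expected to show 12471 to 13134 genes with a read, and S74 was the highest both unreduced (16900 genes) and reduced (13134).

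**Figure D2:**
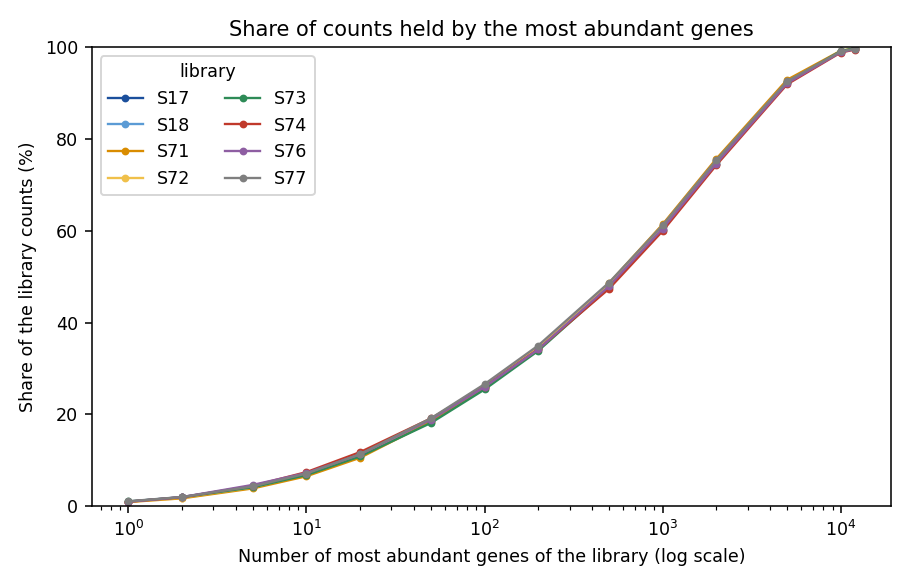
Cumulative share of each library's counts (y axis, %) against the number of its most abundant genes (x axis, log scale), one line per library. The 8 lines nearly coincide: the top 100 genes hold 25.5% to 26.6% and the top 1000 hold 60.0% to 61.4%.

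All 3 zona genes of the mouse were abundant. Zp2, the protein cleaved after fertilization, was at 1463 to 2188 CPM (median 1738) and Zp1, which links the filaments, at 932 to 2108 CPM (median 1661). Per kb, Zp3 (3265 ± 317 CPM per kb) was clear of Zp1 (806 ± 175) and Zp2 (737 ± 104), whose values overlapped. Umodl1, which encodes an uromodulin-like protein with a zona domain, was at rank 14 by CPM, with 3291 to 5271 CPM, but at only 831 ± 129.5 CPM per kb.

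Among oocyte signals, Gdf9 per kb (4092 ± 870 CPM per kb) was above Bmp15 (1240 ± 214 CPM per kb) without overlap of the mean ± SD. Fgf8, which acts with them on cumulus cell glycolysis, was far lower at 141 ± 36.6 CPM per kb. Kit, the receptor for granulosa-cell Kit ligand, was at 128.1 to 176 CPM. Of the secreted oocyte proteins, Oosp1 had 644 to 1141 CPM, and Oosp2 had 378 to 551 CPM in 7 libraries and 872 CPM in S74. The 5 genes of the growth factor list together held 1.15 ± 0.210% of counts.

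The subcortical maternal complex is an assembly under the egg membrane that embryos need for cleavage, and all 8 genes of its list were detected. Zbed3 was the most abundant, at 2733 ± 992 CPM per kb, with 2246 and 2897 CPM in S17 and S18 and 4799 to 7268 CPM in the other 6 libraries, which did not overlap with those 2. Nlrp5, also known as Mater, ranged from 1140 CPM in S74 to 4352 CPM in S18, with a median of 2765 CPM. Padi6, of the peptidylarginine deiminase family, was at 1663 to 2424 CPM, Tle6 at 738 to 1699 CPM and Ooep at 932 to 1692 CPM. Khdc3, also known as Filia, was at 39.9 ± 26.4 CPM per kb, with 1.90 CPM in S17 and up to 133.97 CPM elsewhere. For Khdc3, 42.8% of the 50-base words of its transcript also occur in another gene's transcript, and how the authors counted such reads is not stated in the labels. The summed list held 12427 to 18487 CPM.

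Of 17 protein-coding Nlrp genes, 11 were detected (8230 of 21833 for all protein-coding identifiers), and they were led by Nlrp14, Nlrp5 and Nlrp4f. Nlrp14 was at 843 ± 228.2 CPM per kb, Nlrp5 at 754 ± 267 and Nlrp4f at 712 ± 205 CPM per kb, 3 values within each other's spread. The inflammasome gene Nlrp3 had a mean of 0.695 CPM. The Nlrp sum was 7286 CPM in S74 and reached 16892 CPM in S18, with a mean of 12796 ± 2925 CPM and, without S74, 13584 CPM.

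The Fbxw family held 2.55 ± 0.253% of all counts, more than any other family or list examined. Its 14 array genes span bases 108968515 to 109619739 of chromosome 9 (mm39) and held 2.54 ± 0.251% of counts, between 2.09% and 2.81% in single libraries. They were 29.4% of all counts from chromosome 9, which ranked first among the chromosomes with 8.62 ± 0.176% of counts and had 15 of the 100 leading genes. All 14 had a mean of at least 495 CPM. Fbxw24 was at 4220 to 5453 CPM, Fbxw15 at 2663 to 3914 CPM, and Fbxw25 and Fbxw13 were lowest, with means of 495 and 500 CPM. The other 9 Fbxw genes summed to 142 CPM. Skp1 and Cul1, the partners with which F-box proteins form ubiquitin ligases, were at 923 ± 115 and 319 ± 47.7 CPM per kb.

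Other tandem families were present in part. Among 47 Pramel genes, 13 were detected, 5 had means over 1000 CPM and 16 had no read. The detected share, 27.7%, was below that of all protein-coding identifiers (8230 of 21833). The median Pramel gene shares 59.3% of its words with another transcript, and since the treatment of shared reads is not stated, a count of 0 does not show that such a gene was absent. Pramel25 (927 ± 126 CPM per kb) and Pramel29 (746 ± 120) led them per kb together with Pramel26 (749 CPM per kb). Of the Obox homeobox genes, Obox2 was at 1333 ± 225.1, Obox1 at 1171 ± 158 and Obox5 at 907 ± 114 CPM per kb, with 62.98%, 59.3% and 9.99% shared words, while Obox6 had no read and Obox3 a mean of 0.119 CPM. All 4 Oog genes were detected, led by Oog3 at 1227 ± 257 CPM per kb. Zfp57, a zinc finger protein that guards imprints, led the 400 Zfp genes at 992 ± 72.1 CPM per kb, with 2312 to 2816 CPM.

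**Figure D3:**
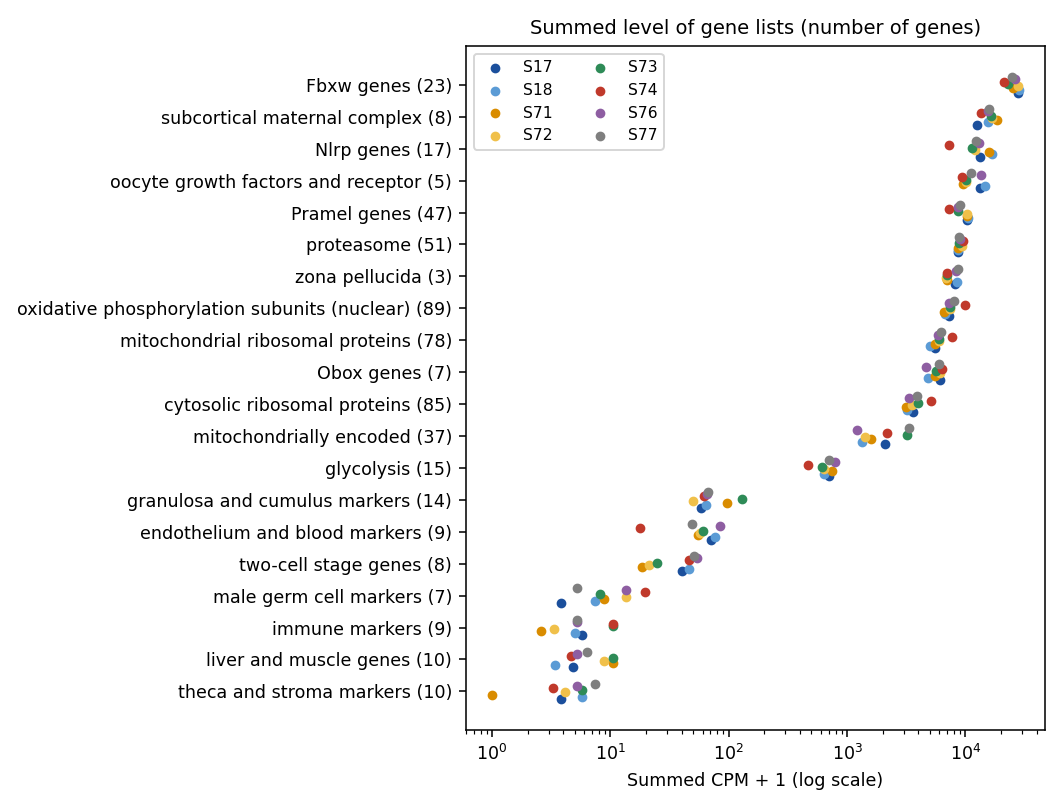
Summed CPM + 1 (log scale) of 20 gene lists, with the number of genes in brackets; points are the 8 libraries. The Fbxw, Nlrp, Pramel and Obox families lie between 4631 and 28237 CPM. The lists of other cell types at the bottom lie at or under 128.97 CPM, with the lowest at 0 in S71.

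Most listed genes that hold the egg in meiosis or release it were detected, beside 8230 of 21833 for all protein-coding identifiers. Of 16 genes for meiotic arrest, 12 were at 1 CPM or more in every library, led by Wee2, the egg kinase that inhibits CDK1, at 547 to 966 CPM. All 17 genes for meiotic resumption were detected. Ccnb1, cyclin B1, was at 1021 to 1601 CPM, and Mos, the kinase that holds the egg at metaphase II, had one of the tighter ranges, 507 to 602 CPM. Pttg1, securin, was at 3419 to 4484 CPM in 7 libraries and 6124 CPM in S74. Checkpoint genes Bub1b (695 to 1600 CPM) and Birc5, or survivin (936 to 1186 CPM), were also abundant. Of the cohesin list, Smc3 was at 408 to 599 CPM, Smc1b at 26.8 to 53.6 CPM, and Rec8, the meiotic kleisin, had no read.

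Messages for storing and translating maternal RNA held 0.557% of counts, and those for later removing it held 0.639%. Btg4, the adaptor that brings the CCR4-NOT deadenylase to maternal messages, was at 3030 to 4301 CPM and rank 15 per kb. Its mean of 3820 CPM was most of the 6393 CPM of the decay list. Cnot7 and Cnot6l, deadenylase subunits, had means of 887 and 325 CPM. Cpeb1, which controls poly(A) tail length, was at 762 CPM in S74 and 1337 to 1838 CPM elsewhere. Zar1, which stores messages in the oocyte, varied from 80.8 CPM in S17 to 532 CPM in S74, a wider spread than that of its relative Zar1l (489 to 740 CPM). Eif4e1b, the oocyte cap-binding protein, was at 197 ± 37.1 CPM per kb, against 104 CPM per kb for Eif4e.

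In the chromatin and methylation lists 1 or 2 genes carried most of each sum. H1f8 and H3f3b, a gene for histone H3.3 (1498 ± 146 CPM per kb), made up most of 15640 ± 1329 CPM. Npm2, which decondenses sperm chromatin, was at 918 to 1191 CPM. Dppa3 had 4048 of the 6136 CPM of the methylation list. Dnmt1, the maintenance methyltransferase, was at 528 to 951 CPM, and Tet3, the oxidase of the paternal genome, at 419 to 559 CPM in 7 libraries and 810 CPM in S74. Tet1 and Tet2 had means of 3.49 and 4.67 CPM.

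Of the transcription factors, Obox5 was the most abundant of the list, at 907 ± 114 CPM per kb. Nobox, an oocyte homeobox factor, had 287 to 716 CPM and Lhx8 had 167 to 240 CPM. Figla, which switches on zona genes, was at 9.48 to 41.3 CPM and Sohlh1, an early oocyte factor, had 1 read in all 8 libraries.

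Energy genes were strongly uneven. Ldhb made up 9417 of the 10208 CPM of the pyruvate and lactate list, while Ldha, the muscle-type subunit, was at 3.08 ± 4.70 CPM per kb. The glycolysis list summed to 464 to 793 CPM, with 7 of 15 genes detected, and Pkm, pyruvate kinase, led it at 238 to 544 CPM. Of 89 nuclear genes for oxidative phosphorylation, 81 were detected, and 14 of 15 citric acid cycle genes were. Over all protein-coding identifiers 8230 of 21833 were detected, a share not far from that of the glycolysis list. The summed oxidative phosphorylation level was 9833 CPM in S74 and 6566 to 8013 CPM in the other libraries.

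Cytosolic ribosomal proteins, 85 genes, held 0.375 ± 0.0651% of counts and, with every gene taken per kb, 0.753%. Rpl4 was the highest by CPM at 354 to 545 CPM, and the median member was at 12.3 CPM per kb, against 11.0 CPM per kb for all detected protein-coding genes. The sum for 78 mitochondrial ribosomal proteins was higher, at 0.598 ± 0.0768%, but their per-kb share was 0.745%. Ribosomal protein genes have many processed copies. The 17 members with under 10% shared words had a median of 34.2 CPM, the 49 members between 10% and 50% had 17.9 CPM and the 19 above 50% had 8.55 CPM. Per kb the same medians were 9.22, 19.3 and 9.83 CPM per kb. Whether reads were lost to copies was not tested. The 302 named ribosomal protein pseudogenes added 1344 CPM. Proteasome genes stood higher, with 0.892 ± 0.0307% of counts, a median member of 67.5 CPM per kb, and Psma7 at 593 to 1019.5 CPM.

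Of 16 broadly expressed housekeeping genes 12 were detected, 6 had means of at least 100 CPM and 1, Gusb, had no read. Gapdh, a glycolytic enzyme often used as a reference, had 2 reads over the 8 libraries together. Outside this list, Hk1, a hexokinase, had no read and Tmsb4x, an actin-binding peptide, had 5. A gene with 0 of the 8983504 reads could still be present at up to 0.334 CPM, a limit that covers counting error only. Rec8 and Gusb overlap no other annotated gene of the table and share no 50-base word with another transcript, while 27.2% of the words of Gapdh are shared. Rec8 had no read in any of the 45 libraries of the study, Gusb had 10 and Gapdh 16. Of the other housekeeping genes, Ywhaz was at 841 to 1075 CPM, Hprt at 150 to 222 CPM and Actb, beta-actin, at 42.7 to 122 CPM.

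By biotype, protein-coding genes held 93.1 ± 0.382% of counts, processed pseudogenes 2.84 ± 0.173% and lncRNAs 2.37 ± 0.201%. The leading lncRNA by CPM was C86187 at 1619 to 2252 CPM, followed by Arhgap20os at 699 to 950 CPM, both with a small part of their exons overlapping another gene (14.5% and 6.12%). The leading pseudogene by CPM was E330034G19Rik, a transcribed unprocessed pseudogene on chromosome 14, at 2085 to 3144 CPM with no shared word. Dicer1, which cuts the small RNAs of the oocyte, is listed as a polymorphic pseudogene in the deposited table and had 210 to 408 CPM. The mitochondrial genome gave only 0.204 ± 0.0821% of counts, led in CPM by mt-Rnr2 with 365 to 940 CPM. mt-Co2 had a mean of 7.63 CPM and 100% of its words shared with another gene, whereas mt-Cytb, with none shared, had 579 CPM. Xist, the RNA that coats an inactive X, had no read. The median detected X-linked protein-coding gene stood at 0.909 ± 0.0441 of the median autosomal one in CPM per kb, and at 0.844 to 0.966 in single libraries.

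Some pseudogenes named after abundant genes were read beside them and others were not. Ldhb-ps on chromosome 19 had 2323 ± 622 CPM, 24.7% of the CPM of Ldhb. Ubb-ps had 26.5% of the CPM of Ubb, Dppa3-ps 28.2% of that of Dppa3, and Ccnb1-ps 21.5% of that of Ccnb1. Mdm4-ps had 2.91% of the CPM of Mdm4 and Nlrp5-ps 1.12% of that of Nlrp5. These percentages compare reads and are not corrected for the lengths of gene and copy, so they are not ratios of level. Prdx1-ps had no read although Prdx1 had a mean of 1089 CPM. Between 18.4% and 89.2% of the words of the 6 pseudogenes with reads are shared with another transcript, so reads of the gene and of its copy cannot be fully told apart. Of 139 pseudogenes so named, 11 had means of 100 CPM or more. Among the 45 whose gene had a mean of at least 100 CPM, 8 were at 100 CPM or more and 9 had no read.

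Families typical of other tissues were close to silent. Of 1139 olfactory receptor genes, 1011 had no read and 10 were detected, of which Olfr976 alone had 127 to 280 CPM of a summed 275.8 to 492 CPM. Of 39 Hox genes, 31 had no read, and Hoxa7 had 31.0 to 85.5 CPM. Of 349 vomeronasal receptors 1 was detected. Among 393 immunoglobulin segments 7 were detected, led by the constant gene Ighm at 85.6 to 153 CPM, while the highest variable segment, Igkv13-87, had a mean of 10.2 CPM.

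Most markers of neighbouring cells were at or near 0, while a few were read in every library, and the source of those reads was not tested. The 14 granulosa and cumulus markers summed to 48.4 to 128.97 CPM, and 2 were detected in every library, Nr5a2 (28.5 to 52.8 CPM) and Cyp19a1 (8.17 to 31.0 CPM). Amh, Foxl2, Has2, Ptx3 and Gatm had no read. Inha was at 45.4 CPM in S73 and at most 9.48 CPM elsewhere, and S73 had the highest granulosa sum. None of 10 theca and stroma markers was detected throughout, and their sum was 0 to 6.34 CPM. The 9 immune markers summed to 1.58 to 9.55 CPM. Of these 1, Cd68, was detected in every library, while Adgre1, Cd3e and Tyrobp were at 0. Endothelium and blood markers summed to 16.8 to 83.0 CPM, almost all of it Pecam1, with Cdh5 and the 4 globin genes at 0. Genes of the 2-cell embryo summed to 17.4 to 52.8 CPM, mostly Tcstv3, with Duxf3, Zscan4c and Zscan4f at 0.

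The spread between oocytes can be set beside that of counting alone, which leaves out the noise of amplifying a single cell. Over the 2129 genes of at least 100 CPM the median coefficient of variation (CV, SD over mean) was 0.174, against 0.0774 from counting alone, and 50 genes were at or under their counting value. The median was 0.143 without S74. With all 8 libraries, the CV was under 0.1 in 227 of the 2129 genes and at least 0.5 in 14. From 1 to 10 CPM the corresponding medians were 0.760 and 0.595. The lowest CVs were those of Nup43, a nuclear pore protein (155 to 171 CPM), Atg5, an autophagy protein (542 to 594 CPM), and Tent5c, a poly(A) polymerase (749 to 834 CPM). In 8 of the 10 lowest, these 3 included, the CV was at or under that of counting alone. Spin1 was also among the 10, with a CV of 0.0448 against 0.0106 from counting. Of the markers, Zp3 had a CV of 0.0972, Bmp15 of 0.172 and Gdf9 of 0.212.

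**Figure D4:**
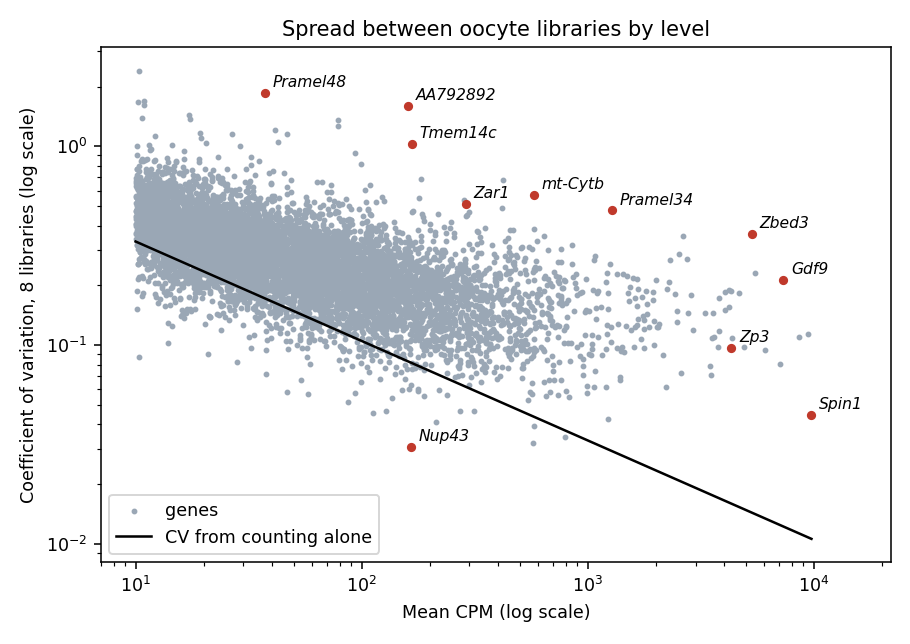
Coefficient of variation over the 8 libraries (y axis) against mean CPM (x axis), both on log scales, for genes of at least 10 CPM; the black line is the CV from counting alone and red points are named genes. Zp3 and Spin1 lie low, AA792892, Tmem14c and Pramel48 far above the rest of their level.

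Of the 10 genes with the highest CV, several were graded, such as Asf1a, a histone chaperone (39.9 to 252 CPM), and Ankib1 (23.9 to 375 CPM). mt-Cytb was at 1063 and 1127 CPM in S73 and S77 and at 300.4 to 542 CPM in the other 6. A few other genes were nearly on or off. AA792892, a predicted gene on chromosome 5, was at 574 and 568 CPM in S17 and S18 and at 8.63 to 38.0 CPM in the other 6. Pramel48, on the same chromosome, was at 145 and 154 CPM in S17 and S18 and had no read in the other 6. Spint1, a membrane protease inhibitor, was the reverse, with no read in S17 and S18 and 22.1 to 45.4 CPM in the rest. Of the words of Pramel48, 78.1% are shared with other transcripts, and 46.3% of those of AA792892, but none of those of Spint1. Reads of the first 2 may therefore belong in part to related genes, and a count of 0 does not show that Pramel48 was absent. A second division did not follow the library numbers. Tmem14c, a mitochondrial membrane protein of heme synthesis, was at 268.7 to 364 CPM in S71, S72, S74 and S76 and at 3.17 to 14.3 CPM in S17, S18, S73 and S77. In the opposite sense, Tnfsf11, the ligand RANKL, was at 28.5 to 45.4 CPM in the second set of 4 and had no read in the first. Lypd3 was at 65.2 to 103 CPM against 1.68 to 3.16 CPM, and E030030I06Rik at 22.2 to 54.9 CPM against no read. These 4 genes lie on 4 different chromosomes (13, 14, 7 and 10).

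In all, 28 genes of at least 10 CPM showed a gap of 3 log2 units or more (on log2 of CPM + 1) between neighbouring libraries. Of these, 4 split the libraries 4 and 4, and all 4 did so in the same 2 sets. Another 3 were low in S17 and S18 alone, and 3 were low in every library except S17 and S18. In 10 of the 28, S73, the shallowest library, was the only low one, and a gene with no read there could still be at up to 7.16 CPM. The labels tie no library to an animal, so whether these sets are oocytes of the same mouse was not tested.

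**Figure D5:**
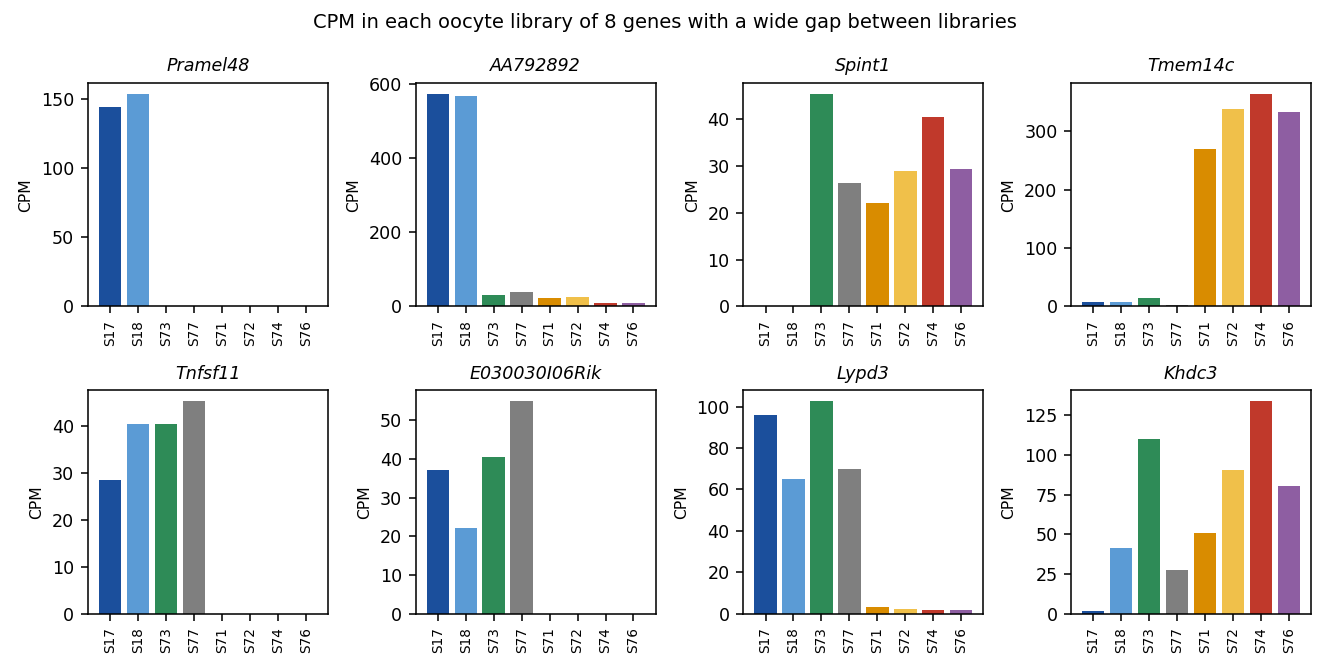
CPM (y axes from 0) of 8 genes in each library, with S17, S18, S73 and S77 on the left of every panel. Tmem14c is on in S71, S72, S74 and S76 and low in the others, Tnfsf11, E030030I06Rik and Lypd3 are the reverse, and Pramel48 is read in S17 and S18 only (145 and 154 CPM).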

How the data were processed

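RNA was sequenced from single oocytes, lysed one by one and amplified (16 PCR cycles for cDNA, 8 for the library; NEBNext Single Cell/Low Input kit), per the labels' protocols. No molecular identifiers are named, so counts are of amplified cDNA, and limits given for a count of 0 cover counting error only. The authors deposited whole-number read counts per gene for 55357 identifiers, not normalized. STAR 2.7.8a, HTSeq 0.11.0 and the build mm39 are named per the submitters' processing notes. The strand setting and the treatment of reads shared between genes are not given in the sources used here. Columns were matched to samples by library number, and 0 columns were left unmatched. Coordinates of genes are those of the deposited table, 1-based on mm39, and those of promoters are on GRCm38.p6.

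Counts were divided by each library's total to give CPM. Transcript lengths were those of the longest GENCODE M21 transcript with the same Ensembl identifier (52081 identifiers, 99.9% of counts). A gene was called detected at 1 CPM or more in every library. Shared words are the percentage of 50-base words of a gene's longest transcript that occur in the longest transcript of another gene. CV from counting alone is that of Poisson counts at the 8 library totals. The calculations ran in Python 3.11.15 with pandas 2.3.3, and edgeR 4.0.16 gave the TMM factors of an alternative. The functions were tested on simulated counts. No groups were compared and no p-value was computed; Dixon's critical value served only to pick out single libraries. The 8 members are all the libraries labelled in vivo young. The 31 gene lists (369 entries, all matched) and the 25 families defined by symbol were chosen with earlier results of these data known.

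Genes named were the 20 highest by CPM and by CPM per kb, the 5 highest of each other biotype with a gene of 10 CPM, the 3 markers, up to 4 of each list, list members under 1 CPM everywhere, and the 10 highest and lowest CVs from 100 CPM. Genes with a wide gap between libraries (Pramel48, Spint1, Tnfsf11, Lypd3, E030030I06Rik), the printed promoters and further list members were chosen after their values were seen. Some items that this rule names are not reported here. Alternatives were leaving out each library, S71 to S77 alone, TMM scaling, medians, per-kb levels, mean transcript length, other detection limits, other minimum levels, and mitochondrial or non-coding genes left out.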

Additional observations from a re-analysis of the deposited data

Results flagged for a closer look

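A library was looked at again where its gap to the nearest of the other 7, divided by the whole range of the 8, was above the 95% critical value of Dixon's test. Of 346 values examined 43 met this. Chance alone flags about 1 in 20 of independent, normally distributed values. These values are not such: list sums repeat their members, and a gene read in only 1 library is always flagged. The 43 can therefore not be measured against that rate. S74 was the outlying library in 31 of the 43, and no cause was tested.

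S74 was the highest library for Pttg1 (6124 CPM), Mphosph6 (4046 CPM), Ftdc1 (2669 CPM), Omt2b (2748 CPM), Tet3 (810 CPM), Oosp2 (872 CPM), Psmb1 (643 CPM), Rpl37rt (663 CPM), Cnot6l (562 CPM), Atp5j2 (436 CPM), Snrpd1 (347 CPM), Rps14 (290 CPM), H3f3a (370 CPM) and Ybx3 (287 CPM, next library 128.2 CPM). It was the lowest for Cpeb1 (762 CPM), Slc30a3 (358 CPM), Ttk (282 CPM), Kif2c (209 CPM), Qars (145 CPM) and Dld (131 CPM). Among summed lists, S74 was highest for cohesin and its protection (6907 CPM), cytosolic ribosomal proteins (5160 CPM), mitochondrial ribosomal proteins (7652 CPM) and oxidative phosphorylation (9833 CPM). The cohesin list includes Pttg1, which alone gave 6124 of the 6907 CPM in S74, so that flag repeats the one for Pttg1. S74 was lowest for meiotic arrest (1496 CPM), meiotic resumption (4128 CPM) and kinesins (2980 CPM). Its lncRNA share was 2.82% against at most 2.45% elsewhere, and its median Spearman correlation with the other libraries was 0.807 against at least 0.871.

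In the other libraries, S73 was highest for Slc25a5 (459 CPM) and for the granulosa gene Inha (45.4 CPM, next 9.48 CPM). S76 was lowest for Rn18s-rs5 (141 CPM) and highest for Sucla2 (224.6 CPM), Eef2k (84.7 CPM) and the keratin sum (192 CPM). S77 was highest for Krt12 (76.1 CPM) and S18 for Zscan4d (8.74 CPM). For 6 genes at or near 0 the outlying value is a handful of reads in 1 library and 0 in the rest: Hoxa10 (2.51 CPM in S76), Acrv1 (2.34 CPM in S72), Fcer1g (1.59 CPM in S18), Ptprc (1.36 CPM in S74), Lyz2 (0.838 CPM in S76) and Alas2 (0.454 CPM in S74).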

How the results depend on the processing

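No paired analysis was possible because 1 group is described and no groups were compared. Of 197 recomputed summary values 184 moved by less than the SD between libraries (counts by less than 1.5 times), as did all 220 recomputed means of the 20 leading genes. Leaving out 1 library, keeping S71 to S77 alone or taking the median cannot move a mean by as much as that SD. For means and shares those outcomes were therefore fixed in advance. Ranked by CPM per kb, 79 of the 100 leading genes were kept, which the limit for counts also lets pass. With the mean instead of the longest transcript length, 86 of the 100 leading genes per kb were shared. Leaving out 1 library at a time kept 98 to 100 of the 100 leading genes, and gave a top 10 share of 6.81% to 6.91%, a top 100 share of 25.8% to 26.0%, 9680 to 9952 detected genes and 10 to 20 genes with a CV of at least 0.5. In the same way protein-coding counts were 93.0% to 93.2%, Fbxw 2.51% to 2.62% and Nlrp 1.22% to 1.36%. With protein-coding genes alone the top 10 held 7.37% and the top 100 held 27.4%. At 10 CPM in every library 6099 genes were detected, and from 10 CPM upward 632 genes had a CV of at least 0.5. As a share of all CPM per kb, cytosolic ribosomal proteins were 0.753%, mitochondrially encoded genes 0.354%, nuclear oxidative phosphorylation genes 1.46%, proteasome 1.03%, Fbxw 3.13%, Nlrp 0.767%, Obox 0.736%, zona pellucida 0.989% and the subcortical maternal complex 1.33%, which follows from dividing by length. Depth limits low genes most: in S73 a gene without a read could be at up to 7.16 CPM. Levels per kb assume even coverage of the longest transcript, which the counts cannot show.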

Other observations

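Some less familiar genes ranked with the best known oocyte genes. E330021D16Rik, an oocyte-expressed protein-coding gene on chromosome 6, was at 3343 ± 315 CPM per kb, beside Tcl1 (3343 ± 615) and Fbxw24. Oas1e, of the family of 2′-5′ oligoadenylate synthetases better known from antiviral defence, was at 2908 to 4336.5 CPM. Plat, tissue plasminogen activator, which is stored in the oocyte as a dormant message, was at 2636 to 5027 CPM. Mdm4, a regulator of p53, was at 3176 to 4962 CPM but, with its long transcript, at 572 ± 86.6 CPM per kb. Astl, the egg protease that cleaves Zp2 (ovastacin), was at 384 to 1290 CPM, with S74 lowest and S18 highest.

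Antioxidant genes were detected in 17 of 22 cases, led by Glrx, glutaredoxin, at 1280 to 1653 CPM and Prdx1, peroxiredoxin 1, at 961 to 1340 CPM. All 17 chaperone genes were detected, with Hsp90aa1 at 950 to 1322 CPM. Over all protein-coding identifiers the number detected was 8230 of 21833. Solute carriers were led by Slc30a3, a zinc transporter, at 599 ± 109 CPM and by the zinc importer Slc39a10 at 473 ± 91.9 CPM.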
